A study of Mus musculus with 10 samples.

Results

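Glul, Oat, Rhbg, Slc1a2, Slc1a4 and Slc13a3 are 6 of the 55385 gene IDs measured in these mouse livers. They were chosen by name: the glutamine synthetase, the ornithine aminotransferase, and carriers of ammonium, glutamate, neutral amino acids and dicarboxylates. RNA from frozen whole liver was sequenced in 10 libraries, of which 5 carry the label Alk1-HEC-KO and 5 are controls, with the control genotype given as Ctrl. The series title names Alk1, also called Acvrl1, as the gene knocked out; HEC, the strain, the sex, the age and the means of deletion are not explained in the labels. The labels do not tie libraries to single mice, so each p-value measures the spread between libraries.

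The libraries summed to between 20907400 and 21556500 estimated counts. Acvrl1 itself averaged 1.36 ± 0.331 TPM in libraries labelled Alk1-HEC-KO and 0.669 ± 0.331 TPM in controls (SD, n = 5 each), and was not called (edgeR, log2 fold change 0.99, adjusted p = 0.34), which is not the loss that the label names. Its TPM was higher in every library labelled Alk1-HEC-KO (1.12 to 1.92) than in every control (0.296 to 1.05). Counts per gene cannot show a deleted exon, and the labels do not say which part was deleted. The group is therefore called labelled knockout below, and every direction rests on the label. TPM is the abundance of transcripts after division by their length, scaled to the same sum in each library. All 10 hepatocyte markers looked for were detected, and their summed level ranged from 76689 to 101694 TPM in labelled knockout libraries and from 58376 to 106788 TPM in controls.

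In the liver lobule, blood flows from the portal tract to the central vein, and hepatocytes differ along that path. Periportal hepatocytes turn ammonia into urea and release ammonia from glutamine, while a thin layer of hepatocytes around the central vein takes up the ammonia that passed and fixes it onto glutamate as glutamine. Glul encodes the enzyme of that last step; Oat supplies it with glutamate from ornithine, Rhbg carries ammonium, Slc1a2 imports glutamate, and Slc13a3 imports dicarboxylates such as 2-oxoglutarate, from which glutamate can be made. Signals of the WNT and beta-catenin pathway are known to keep this layer's genes on.

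Sequence before an annotated start is shown for the 3 members that fell and have a RefSeq entry. TCF/LEF proteins are the DNA-binding partners of beta-catenin, and a part of that pathway in the members' fall was not tested. Each line gives the 250 bases before the annotated start, from RefSeq on GRCm38.p6, read 5′ to 3′ on the gene's strand. Capitals mark CTTTGAT, a TCF/LEF core, CCAAT, the CCAAT box, and GGGCGG, the GC box, on either strand; no marked motifs overlap. The windows lie at chr1:153899679-153899928 on the plus strand, chr2:102706188-102706437 on the plus strand and chr2:165473198-165473447 on the minus strand.
Glul: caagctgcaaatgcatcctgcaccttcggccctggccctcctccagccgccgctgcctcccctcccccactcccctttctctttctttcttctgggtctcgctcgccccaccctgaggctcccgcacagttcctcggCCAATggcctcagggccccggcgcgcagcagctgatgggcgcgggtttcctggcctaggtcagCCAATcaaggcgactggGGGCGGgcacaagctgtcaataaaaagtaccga
Slc1a2: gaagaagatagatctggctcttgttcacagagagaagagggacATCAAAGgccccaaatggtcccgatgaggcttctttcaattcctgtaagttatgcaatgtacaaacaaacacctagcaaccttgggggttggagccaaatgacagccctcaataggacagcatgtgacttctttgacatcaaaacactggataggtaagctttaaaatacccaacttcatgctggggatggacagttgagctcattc
Slc13a3: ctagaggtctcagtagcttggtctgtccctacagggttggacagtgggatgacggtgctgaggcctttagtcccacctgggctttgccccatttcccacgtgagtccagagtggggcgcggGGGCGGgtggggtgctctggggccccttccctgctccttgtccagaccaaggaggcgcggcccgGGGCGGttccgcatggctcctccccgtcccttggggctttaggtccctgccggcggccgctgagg
The Glul window held CCAAT at 2 places and GGGCGG at 1, the Slc13a3 window held GGGCGG at 2 places, and neither held CTTTGAT. The Slc1a2 window held CTTTGAT on the opposite strand, 207 to 201 bases before the start, and no CCAAT or GGGCGG. Over 5 members with a window, CTTTGAT was found in 1, CCAAT in 3 and GGGCGG in 3. Over all 32817 distinct windows of this length the shares were 3.21%, 33.8% and 32.7%. The G and C content was 64.8% for Glul, 44.8% for Slc1a2 and 67.6% for Slc13a3, beside a median of 52.4% over all windows. The start used for Slc1a2 lies inside the annotated span of the gene, as does that for Slc13a3, whose window overlaps the end of that span, and letters in these windows say nothing of sites farther away.

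All 6 members pointed lower in the labelled knockout libraries, and 4 of them, Glul, Rhbg, Slc1a2 and Slc13a3, fell (quasi-likelihood test of edgeR, threshold 0.05 after Benjamini-Hochberg adjustment over all tested genes). All 6 passed the filter on low counts. Among all 12872 tested genes 0.171% fell and 0.186% rose by the same test. All 6 had an unadjusted p under 0.05, as had 8.44% of tested genes in either direction. The median log2 fold change, labelled knockout over control, was -3.36 over the members and 0.00 over all tested genes. Levels of 5 members, all but Slc1a4, did not overlap between the groups in log2 CPM (counts scaled to library size), which held in that direction for 0.73% of tested genes and in either direction for 1.68%. In bulk RNA, fewer cells of a type and less RNA per cell cannot be told apart.

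**Figure D1:**
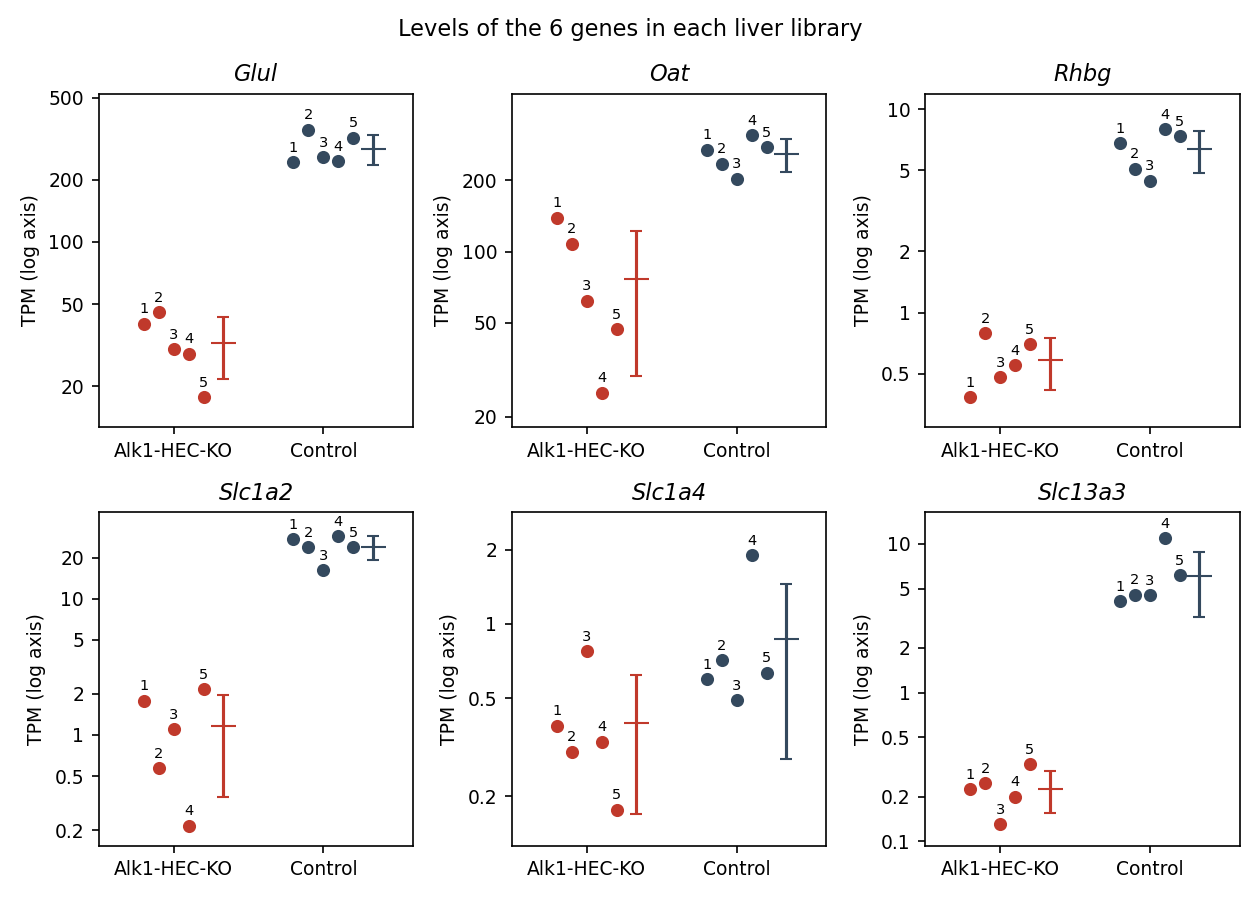
TPM of the 6 genes in each library on log axes that differ between panels; points are libraries numbered by replicate, and bars at the side show the mean and SD (n = 5). Labelled knockout libraries lie below every control library for all genes except Slc1a4.

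Glul, the only enzyme that makes glutamine from glutamate and ammonia, carried the largest number of counts among the members over all libraries together. Its level was 40.2, 45.6, 30.2, 28.7 and 17.7 TPM in labelled knockout libraries 1 to 5, against 243, 350, 258, 246 and 320 TPM in control libraries 1 to 5. The lowest control library was thus 5.34 times the highest labelled knockout library. The means were 32.5 ± 10.9 TPM in labelled knockout libraries and 283 ± 48.5 TPM in controls (SD, n = 5 each), so the labelled knockout mean was 11.4% of the control mean. On the log2 scale the fold change was -3.24 ± 0.20 (standard error; edgeR, adjusted p = 2.9e-06), and Glul had the smallest p of all 12872 tested genes. By mean TPM, Glul ranked 2020 among all gene IDs in labelled knockout libraries and 353 in controls. The gene lies on chromosome 1 from 153899944 to 153909723 on the plus strand (ENSMUSG00000026473.16, GRCm38), where the annotation also places Teddm2 on the opposite strand. Strand use in counting is not given in the sources used here, but Teddm2 held 69 counts in labelled knockout libraries and 116 in controls, while Glul held 8101 in labelled knockout libraries and 72291 in controls.

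Oat, the mitochondrial enzyme that turns ornithine and 2-oxoglutarate into glutamate semialdehyde and glutamate, stood lower by less and varied more. It had 139, 108, 61.9, 25.3 and 47.0 TPM in labelled knockout libraries 1 to 5, against 270, 235, 203, 311 and 276 TPM in control libraries 1 to 5. The groups did not overlap, and the lowest control was 1.47 times the highest labelled knockout library. The means were 76.2 ± 46.3 TPM in labelled knockout libraries and 259 ± 41.0 TPM in controls (SD, n = 5 each), and the coefficient of variation was 60.8% in labelled knockout libraries and 15.8% in controls. Over all genes its log2 fold change of -1.87 (standard error 0.36) missed the threshold (edgeR, unadjusted p = 0.00023, adjusted p = 0.060). An exact two-sided permutation test of its TPM gave an unadjusted p of 0.0079, the smallest that 5 against 5 libraries allow. Groups that do not overlap always give that value, so it adds nothing to the lack of overlap. Without labelled knockout library 1, the highest, it passed (edgeR, log2 fold change -2.22, adjusted p = 0.0071). Without labelled knockout library 4, the lowest, it passed too (edgeR, log2 fold change -1.65, adjusted p = 0.015), and DESeq2 called it (log2 fold change -1.86, adjusted p = 4.8e-06). In the other 17 of 20 alternative fits it was not called, for instance without labelled knockout library 5 (edgeR, adjusted p = 0.21). Over all alternatives its edgeR, limma or DESeq2 adjusted p ranged from 4.8e-06 to 1.0, the highest with the run of file numbers as a covariate. Oat lies on chromosome 7 from 132557478 to 132576398 on the minus strand (ENSMUSG00000030934.9, GRCm38), and overlaps the span annotated for Fgfr2, which held 2372 counts in labelled knockout libraries and 2866 in controls.

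Rhbg encodes an ammonium transporter of the Rhesus family. Its level was 0.383, 0.794, 0.483, 0.55 and 0.699 TPM in labelled knockout libraries 1 to 5, against 6.79, 5.10, 4.44, 7.95 and 7.37 TPM in control libraries 1 to 5. The groups did not overlap, and 101 counts stood for Rhbg in the labelled knockout libraries together, against 1090 in the controls together. Rhbg fell with a log2 fold change of -3.48 (standard error 0.25; edgeR, adjusted p = 1.4e-05), and its p was the second smallest of all tested genes. The spread was alike in relative terms, with a coefficient of variation of 28.3% in labelled knockout libraries and 23.7% in controls. It lies on chromosome 3 from 88242874 to 88254709 on the minus strand (ENSMUSG00000104445.1, GRCm38). A predicted gene, Gm38392, overlaps it on the same strand and held 36 counts in labelled knockout libraries and 82 in controls.

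Slc1a2, the glutamate carrier best known from astrocytes of the brain, stood at a small fraction of its control level. It had 1.79, 0.568, 1.10, 0.216 and 2.16 TPM in labelled knockout libraries 1 to 5, against 27.2, 23.9, 16.2, 28.8 and 23.9 TPM in control libraries 1 to 5. Labelled knockout library 4, the lowest, held 13 counts, and the lowest control library held 1474. The labelled knockout mean of 1.17 ± 0.812 TPM was 4.86% of the control mean of 24.0 ± 4.85 TPM (SD, n = 5 each). Slc1a2 fell with a log2 fold change of -4.84 (standard error 0.59; edgeR, adjusted p = 0.0076). That call was lost without control libraries 1 and 2, which had high Fos, an immediate early gene (edgeR, log2 fold change -4.80, adjusted p = 0.086), and with the run of file numbers as a covariate (edgeR, log2 fold change -4.48, adjusted p = 0.38). The gene spans chromosome 2 from 102658659 to 102790784 on the plus strand (ENSMUSG00000005089.15, GRCm38), with 12 annotated transcripts.

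Slc13a3, a sodium-coupled dicarboxylate carrier, fell to the smallest share of its control mean among the members, 3.74%. Its level was 0.224, 0.246, 0.131, 0.200 and 0.330 TPM in labelled knockout libraries 1 to 5, against 4.13, 4.56, 4.50, 10.9 and 6.17 TPM in control libraries 1 to 5. The 0.246 TPM of labelled knockout library 2 rests on 2 counts, whereas the 0.224 TPM of library 1 rests on 13. In log2 CPM library 2 was the lowest, at -2.48. Every labelled knockout library lay below 1 TPM and every control library above 4 TPM, so the lowest control was 12.5 times the highest labelled knockout library. Slc13a3 fell with a log2 fold change of -5.01 (standard error 0.45; edgeR, adjusted p = 0.00047), on sums of 56 counts in labelled knockout libraries and 1784 in controls. Only 2 of 12872 tested genes had a lower log2 fold change in this fit; its distance from Slc1a2 (-4.84) was smaller than either standard error, and Slc1a2 had the lower value by limma and without labelled knockout library 1. The gene lies on chromosome 2 from 165405028 to 165473230 on the minus strand (ENSMUSG00000018459.15, GRCm38).

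Slc1a4, a carrier of small neutral amino acids such as alanine and serine, was low in both groups and was not called. It had 0.386, 0.303, 0.775, 0.333 and 0.176 TPM in labelled knockout libraries 1 to 5, against 0.598, 0.711, 0.491, 1.90 and 0.634 TPM in control libraries 1 to 5. Labelled knockout library 3 lay above 4 of the 5 control libraries, and control library 4 stood apart at the top. Its log2 fold change was -1.19 ± 0.39 (standard error, edgeR, unadjusted p = 0.0090, adjusted p = 0.36). The exact two-sided permutation test of its TPM gave an unadjusted p of 0.063. Without control library 4 the log2 fold change was -0.76, still not called (edgeR, adjusted p = 0.50). It lies on chromosome 11 from 20302180 to 20332713 on the minus strand (ENSMUSG00000020142.12, GRCm38).

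The order of the members' TPM levels differed between the groups. In labelled knockout libraries the means ran from Oat through Glul, Slc1a2, Rhbg and Slc1a4 to Slc13a3, and only Glul and Slc1a2 were neighbours whose ranges did not overlap. In controls the order ran from Glul through Oat, Slc1a2, Rhbg and Slc13a3 to Slc1a4, where Glul and Oat overlapped, as did Rhbg and Slc13a3, and the other neighbours did not. Oat lay above Glul in 4 of 5 labelled knockout libraries and in 2 of 5 controls. No library was the lowest for all members: among the labelled knockout libraries, library 5 was lowest for Glul but highest for Slc1a2 and Slc13a3. Among the controls, library 4 was highest for 5 of the 6 members, all but Glul.

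Ratios of TPM between a pair of genes within a library need no scaling between libraries and show whether both changed by the same amount. Each was tested on log2 of TPM + 0.1, with an exact two-sided permutation test and Benjamini-Hochberg adjustment over 7 ratios. The Oat over Glul ratio averaged 1.06 ± 0.74 in labelled knockout libraries and -0.13 ± 0.37 in controls on the log2 scale (SD, n = 5 each), a difference of 1.19 (exact permutation p = 0.024, adjusted 0.042). It was higher than every control in 4 of 5 labelled knockout libraries, and library 4 was the exception. The call was lost without the 3 libraries with high Saa1, an acute phase protein gene, which are labelled knockout libraries 4 and 5 and control library 4 (difference 1.6, exact permutation p = 0.057, the smallest that the remaining libraries allow), and without the 2 with high Fos (difference 1.13, p = 0.071). Without single libraries the exact permutation p ran from 0.016 to 0.048 before adjustment. Adjusted over the 7 ratios, only the test without labelled knockout library 4 would stay under 0.05. Rhbg over Glul averaged -5.54 ± 0.69 in labelled knockout libraries and -5.48 ± 0.47 in controls, a difference of -0.06 (exact permutation p = 0.88). The direction of that difference turned when 1 TPM was added instead of 0.1 (0.95) and when labelled knockout library 1, control library 1 or control library 4 was left out.

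Slc1a2 over Glul and Slc13a3 over Glul stood lower by 1.36 and 0.99 on the log2 scale without passing (exact permutation p = 0.087 and 0.056, adjusted 0.10 and 0.078). Both had an unadjusted p under 0.05 when CPM replaced TPM, with differences of -2.10 and -1.95 (exact permutation p = 0.016 and 0.032), and both did without labelled knockout library 5 (-1.85 and -1.29, p = 0.016 each). Labelled knockout library 2 held 2 counts for Slc13a3, and its part in the gap between TPM and CPM was not tested. With 1 TPM added, the Slc13a3 difference turned to 0.69, and its labelled knockout levels all lie below that amount. Slc1a4 over Glul was higher by 2.26 without overlap (exact permutation p = 0.0079, adjusted 0.019), as Slc1a4 stood lower by less than Glul did. Without the libraries with high Saa1 this difference was 2.58 (exact permutation p = 0.057).

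**Figure D2:**
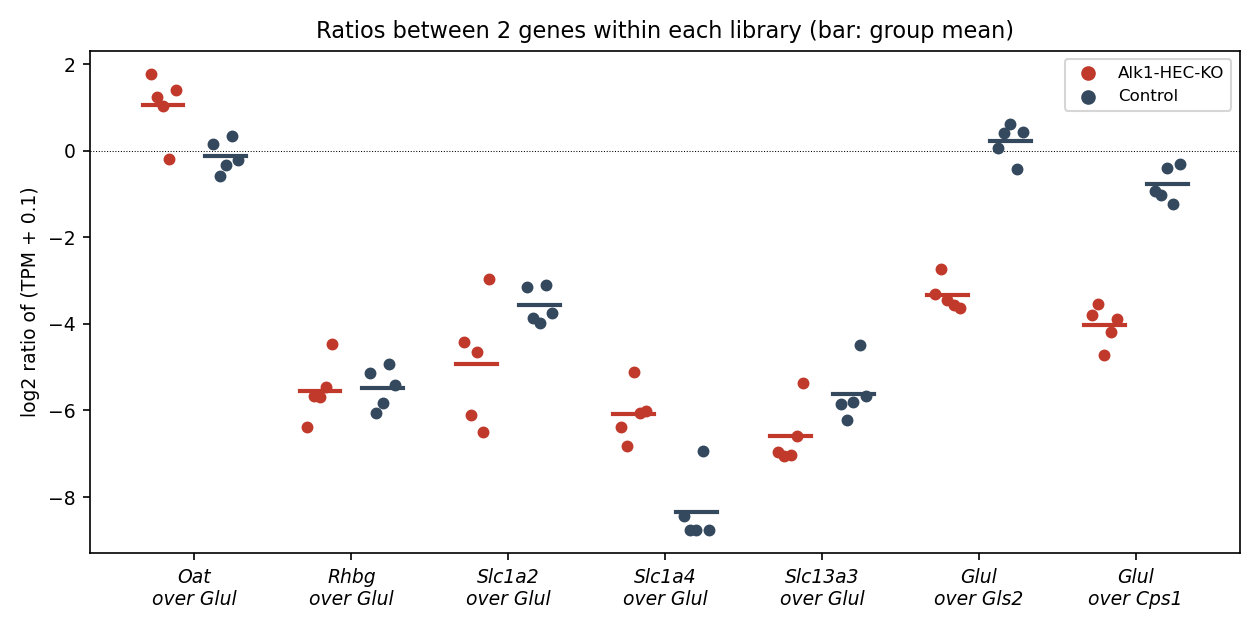
Log2 of the ratio of (TPM + 0.1) between 2 genes within each library, with labelled knockout libraries left and controls right in each pair; horizontal bars are group means. Glul over Gls2, Glul over Cps1 and Slc1a4 over Glul part the groups fully, and Rhbg over Glul overlaps almost wholly.

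Glul was also set against the periportal side of ammonia handling. Gls2, the liver glutaminase that splits glutamine, averaged 317 ± 64.6 TPM in labelled knockout libraries and 246 ± 58.3 TPM in controls (SD, n = 5 each) and was not called (edgeR, log2 fold change 0.28, adjusted p = 0.66). The level of Glul was 0.101, 0.151, 0.0920, 0.0843 and 0.0803 times that of Gls2 in labelled knockout libraries 1 to 5, against 1.05, 1.33, 1.53, 0.749 and 1.34 times in control libraries 1 to 5. Glul transcripts thus exceeded those of Gls2 in 0 of 5 labelled knockout libraries and in 4 of 5 controls. The log2 ratio differed by -3.55 (exact permutation p = 0.0079, adjusted 0.019). Against Cps1, which makes carbamoyl phosphate for the urea cycle, the log2 ratio differed by -3.24 (exact permutation p = 0.0079, adjusted 0.019), while Cps1 averaged 532 ± 188 TPM in labelled knockout libraries and 498 ± 149 TPM in controls (SD, n = 5 each). Without the libraries with high Saa1, both ratios kept their size (-3.53 and -3.34) at the smallest p then possible (exact permutation p = 0.057). Cps1, like Gls2, was not called (edgeR, log2 fold change 0.015, adjusted p = 0.99). Both ratios thus mostly restate the log2 fold change of Glul (-3.24), and their p-values are no separate evidence.

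The other enzymes of the pathway gave no call, and a list this short would seldom hold one at the share over all tested genes. That share was 0.357% in either direction, and 8.44% had an unadjusted p under 0.05. Among 18 tested of 20 genes for ammonia, glutamine and glutamate enzymes, none was called in either direction (edgeR; 1 had an unadjusted p under 0.05), 6 pointed higher and 12 lower, and the median log2 fold change was -0.11. Gls2 was their most abundant member. Asns, asparagine synthetase, which uses glutamine as its nitrogen source, depended on a single library and was chosen after its values were seen. It had 4.74, 5.31, 8.86, 10.6 and 5.22 TPM in labelled knockout libraries 1 to 5, against 0.734, 1.53, 0.661, 52.3 and 2.07 TPM in control libraries 1 to 5. Control library 4 lay above all others, and the other 4 controls lay below every labelled knockout library. Over all libraries the log2 fold change was -0.66 (edgeR, adjusted p = 0.91), and without control library 4 Asns rose (log2 fold change 2.42, edgeR adjusted p = 0.019). The same control library held the highest Slc1a4.

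Of 20 genes around ornithine, the urea cycle and proline, 17 were tested and none was called (edgeR; 2 had an unadjusted p under 0.05), with 7 pointing higher, 10 lower and a median of -0.02. Over all tested genes 0.357% were called and 8.44% had an unadjusted p under 0.05. Ass1, the argininosuccinate synthetase and the most abundant of them, averaged 2837 ± 1176 TPM in labelled knockout libraries and 2748 ± 736 TPM in controls (SD, n = 5 each; log2 fold change -0.02). Otc, the urea cycle enzyme that shares its substrate ornithine with Oat, averaged 182 ± 44.1 TPM in labelled knockout libraries and 177 ± 21.7 TPM in controls. Prodh, proline dehydrogenase, averaged 64.8 ± 13.7 TPM in labelled knockout libraries and 93.4 ± 12.4 TPM in controls with a log2 fold change of -0.63 (edgeR, adjusted p = 0.20). DESeq2 and edgeR without the count filter called Prodh lower (adjusted p = 0.035 and 0.043). Otc and Prodh were chosen after their values were seen.

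The closest relatives of the member transporters were mostly too low to test. Of 12 listed, 3 passed the count filter and none was called (edgeR; 0 had an unadjusted p under 0.05, and DESeq2 called 1). With 0.357% of all tested genes called, 3 genes would seldom hold a call. Within the SLC1 family, Slc1a2 averaged 1.17 TPM in labelled knockout libraries and 24.0 TPM in controls, whereas Slc1a5, a glutamine carrier, averaged 0.783 ± 0.280 TPM in labelled knockout libraries and 0.832 ± 0.579 TPM in controls (SD, n = 5 each; log2 fold change -0.0037). Within the SLC13 family, sodium-coupled carriers of carboxylates or sulphate, the highest mean was that of Slc13a2 in labelled knockout libraries (1.72 ± 0.656 TPM; 1.37 ± 0.414 TPM in controls) and that of Slc13a3 in controls. Slc13a4, a sulphate carrier outside the filter and taken up after its values were seen, summed to 2 counts in labelled knockout libraries and 43 in controls. It was above 0 in 1 of 5 labelled knockout libraries and in 5 of 5 controls, a labelled knockout over control ratio of 0.0468 (95% exact binomial interval 0.00549 to 0.180, covering counting error only). DESeq2 and edgeR without the count filter called it lower (adjusted p = 0.012 and 0.0089). Of the Rhesus relatives, Rhcg had 0 counts in all libraries; Rhag averaged 0.0497 TPM in labelled knockout libraries and 0.0621 TPM in controls. Slc1a5, Rhcg and Rhag were also chosen after their values were seen.

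Other amino acid and carboxylate carriers likewise gave no call, with 27 of 33 tested (edgeR; 2 had an unadjusted p under 0.05), 13 pointing higher, 14 lower and a median of -0.01. The shares over all tested genes were 0.357% called and 8.44% with an unadjusted p under 0.05. Slc38a3, the glutamine carrier of hepatocytes and the most abundant of the list, averaged 859 ± 350 TPM in labelled knockout libraries and 904 ± 272 TPM in controls (SD, n = 5 each; log2 fold change -0.16). Slc16a10, a carrier of aromatic amino acids, had a log2 fold change of -0.81, and Slc7a8, which carries neutral amino acids, one of 1.08 (edgeR, adjusted p = 0.15 and 0.13). Without labelled knockout library 1, the list had 2 calls: Slc16a10 fell and Slc7a8 rose (edgeR, log2 fold changes -0.96 and 1.23, adjusted p = 0.043 and 0.020). Both were chosen after their values were seen.

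**Figure D3:**
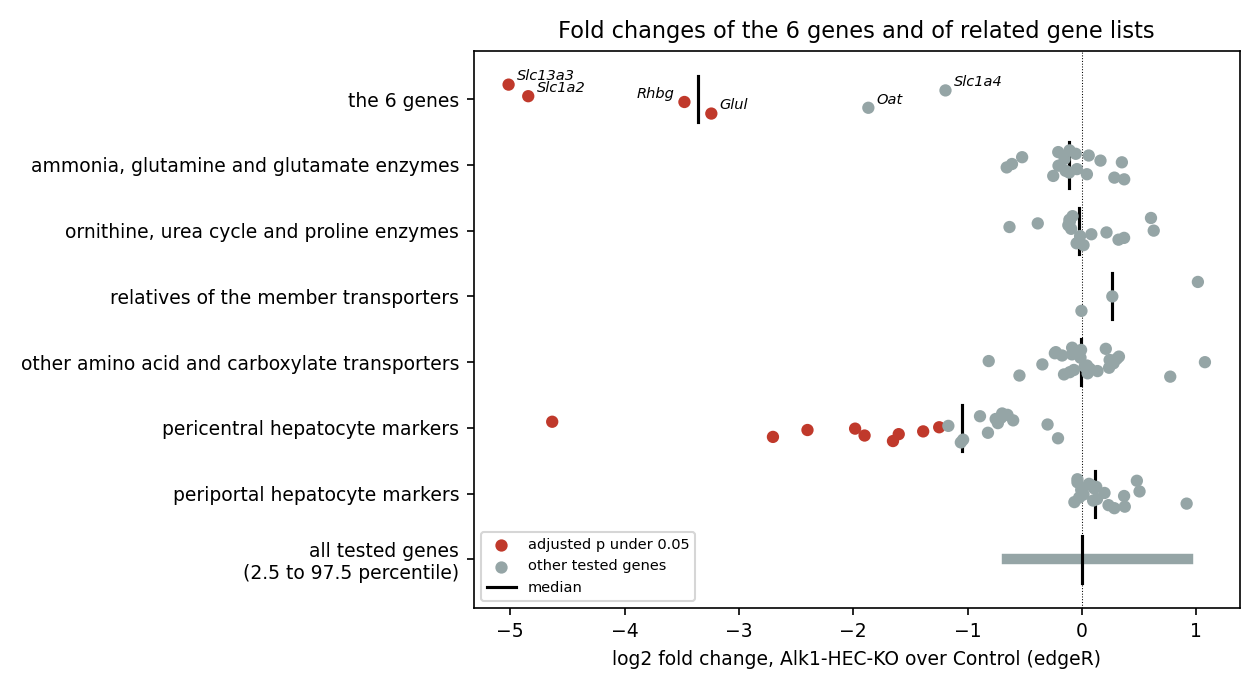
Log2 fold change, labelled knockout over control, of the 6 genes and of the tested genes of 6 lists, with called genes in red; black bars are medians and the grey band spans the central 95% of all tested genes. The 4 called members lie between -5.01 and -3.24, and the only list with called genes is that of pericentral markers.

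Other markers of pericentral hepatocytes, with the 6 members left out, pointed the same way. Of 22 tested, 9 fell and none rose; all 22 had negative log2 fold changes, and their median was -1.05. Among all tested genes 0.171% fell. The 6 with the smallest adjusted p were Sp5 (-4.63) and Tbx3 (-1.60), transcription factors, Rcan2 (-1.98), a calcineurin regulator, Lect2 (-1.39), a secreted hepatocyte protein, Lgr5 (-2.70), an R-spondin receptor, and Gulo (-1.25), an enzyme of vitamin C synthesis. Cyp2e1, their most abundant gene, averaged 1658 ± 858 TPM in labelled knockout libraries and 3153 ± 261 TPM in controls (SD, n = 5 each) and was not called (edgeR, log2 fold change -1.06, adjusted p = 0.17). The count of 9 was 5 without control library 5, 5 without the libraries with high Saa1, 3 without those with high Fos, 0 and 2 by limma after adding 1 or 0.1 TPM, and 0 with the run of file numbers as a covariate. Among 20 periportal markers none was called (edgeR; 3 had an unadjusted p under 0.05), with a median of 0.12 and 15 pointing higher; Ass1 was again the most abundant. Here too the shares over all tested genes were 0.357% called and 8.44% with an unadjusted p under 0.05. Slc1a2 and Slc13a3 had a lower log2 fold change than all 22 markers, and Glul and Rhbg a lower one than every marker except Sp5; these differences were not tested.

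The genes whose pattern lay closest to that of Glul were ranked by the root mean square difference in log2 CPM over the 10 libraries, each gene centred on its control mean. Rhbg was the nearest of 9931 genes ranked, at 0.544, where the median gene stood at 2.31. Oat was the fifth at 0.993, Slc13a3 stood at rank 42 and Slc1a2 at rank 84, both with larger falls than Glul, and Slc1a4 was left out for a mean below 1 TPM. The 8 nearest genes other than members were Tnfrsf19 (0.758), Tbx3os1 (0.792), Slc22a3 (0.969), Cyp2a5 (0.997), Rdh9 (1.03), AC102159.1 (1.03), Rcan2 (1.04) and Cyp2c37 (1.06). Of these, Tnfrsf19, Tbx3os1, Slc22a3 and Rcan2 fell (edgeR, adjusted p = 0.0095, 0.020, 0.025 and 0.0029), and the other 4 were not called. The ranking uses the group difference, so genes near Glul stand lower by selection and these calls are no separate evidence. Likeness here is a description of these libraries, and Cyp2a5 and Cyp2c37 have close copies among which reads could be split.

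Counts and TPM together also give an approximate mean transcript length for each gene and library, scaled on 446 genes with a single annotated transcript. The scale is not exact: Slc1a4 stood at 3968 to 4033 bases in labelled knockout libraries, above its longest annotated transcript of 3926 bases. For Glul, Oat, Rhbg and Slc1a4 this length was nearly the same in every library, for instance 2780 to 2811 bases in labelled knockout libraries and 2793 to 2810 bases in controls for Glul. For Slc1a2 it was 4415, 2546, 2792, 3188 and 2356 bases in labelled knockout libraries 1 to 5, against 4075, 5019, 4541, 4274 and 4112 bases in control libraries 1 to 5. All labelled knockout libraries except library 1 thus lay below every control (exact two-sided permutation p = 0.032, or 0.19 after adjustment over the 6 members compared). Those 4 libraries held 24, 52, 13 and 102 counts for Slc1a2, so few reads carry the estimate. For Slc13a3 the length was 489 bases in labelled knockout library 2, which held 2 counts, and 3176 to 3601 bases in the other 4, against 3193 to 3431 bases in controls.

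**Figure D4:**
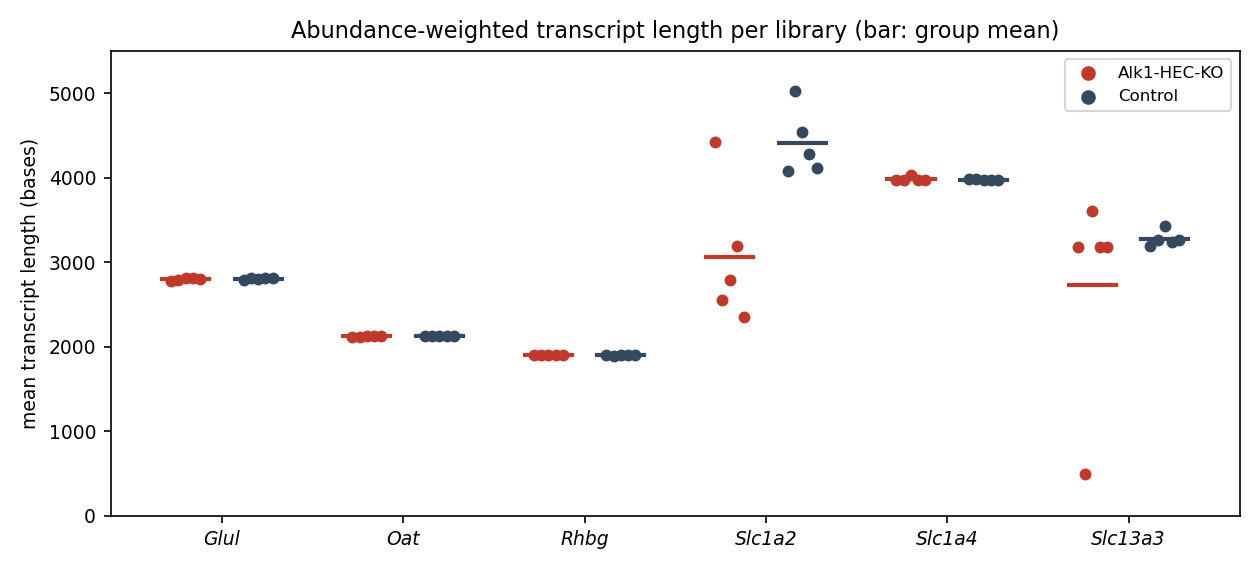
Approximate mean transcript length in bases, weighted by abundance, for each member and library, with labelled knockout libraries left and controls right; horizontal bars are group means. Slc1a2 is shorter in 4 of 5 labelled knockout libraries than in every control, and the single low Slc13a3 point rests on 2 counts.

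Markers of other cells were set beside these results. Summed Kupffer cell markers ran from 163 to 338 TPM in labelled knockout libraries and from 106 to 170 TPM in controls, and summed leukocyte markers from 6.57 to 25.2 TPM in labelled knockout libraries and from 2.70 to 6.37 TPM in controls. All 8 Kupffer and all 8 leukocyte markers were detected, and none of the 8 Kupffer and 5 leukocyte markers tested was called. With 0.357% of all tested genes called, lists this short would seldom hold a call. The part of these cells in the members' fall was not tested. Leukocyte sums did not overlap between the groups, while Kupffer, endothelial, stellate and cholangiocyte sums did. Unadjusted exact two-sided permutation p was 0.0079 for leukocyte and 0.016 for Kupffer sums. It was 0.29, 0.83 and 0.81 for endothelial, stellate and cholangiocyte sums. Of organs that express some of these carriers, the kidney left little trace: Slc34a1, Slc12a1, Kap and Aqp2 had 0 counts, and 2 of 8 kidney markers reached 3 counts. The kidney sum was at most 0.226 TPM in labelled knockout libraries and 0.114 TPM in controls. Of 8 adipose and pancreas markers 6 reached 3 counts, and their sum ran from 25.4 to 39.2 TPM in labelled knockout libraries and from 28.7 to 45.9 TPM in controls. Nerve and astrocyte markers without Aldh1l1, which hepatocytes express, summed to 0.778 to 2.23 TPM in labelled knockout libraries and 0.975 to 2.38 TPM in controls, with Sox10 at 0.

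Numbers in the deposited file names fall into 3 runs, whose meaning the labels do not give. The first holds labelled knockout library 1 with control libraries 1 and 2, the second holds labelled knockout library 3 with control libraries 3, 4 and 5, and the third holds labelled knockout libraries 2, 4 and 5 only. Glul stood at 40.2 TPM in the labelled knockout library of the first run, against 243 and 350 TPM in its controls, and at 30.2 TPM in that of the second, against 258, 246 and 320 TPM. Glul, Oat, Rhbg, Slc1a2 and Slc13a3 do not overlap between the groups over all libraries, so their order within a run is fixed and adds nothing. Slc1a4 in the labelled knockout library of the first run lay below its controls. In the second run it lay above control libraries 3 and 5 and below control library 4. With the run as a covariate, Glul and Rhbg remained called, and Slc1a2 and Slc13a3 did not (edgeR, log2 fold changes -4.48 and -5.03, adjusted p = 0.38 and 0.056), while the count over all genes went down to 5. In that fit the group difference rests on labelled knockout libraries 1 and 3 alone, since the third run holds no control. Fewer libraries and the run cannot be told apart there.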

How the data were processed

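RNA from frozen whole liver was sequenced by standard BGISeq-500 protocols, per the labels' protocols, in 10 libraries, 5 labelled Alk1-HEC-KO and 5 control. The authors deposited estimated counts and TPM per gene for each library. Trim Galore 0.6.4, kallisto 0.4.6 and the build GRCm38.p6 are named, per the submitters' processing notes; the annotation release, the summing to genes and strand use are not given in the sources used here. Of 55385 gene IDs, 55144 matched a symbol.

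The deposited counts, 38.3% of nonzero values whole within 1e-06, were rounded and tested with edgeR 4.0.16 in R 4.3.3 (quasi-likelihood, robust, TMM scaling, filterByExpr). Of all genes 12872 were tested, with Benjamini-Hochberg adjustment over them and a threshold of 0.05. Standard errors of edgeR fold changes were taken as the absolute log2 fold change over the square root of the quasi-likelihood F statistic. Ratios used an exact permutation test on log2(TPM + 0.1). Alternatives were DESeq2 1.42.0 and its size factors, library totals, no filter, limma 3.58.1 on log2(TPM + 1) or log2(TPM + 0.1), the replicate number as a block, the run of file numbers, other pseudocounts or CPM for ratios, and leaving out libraries, singly or those with over 1000 TPM of Saa1 or over 20 TPM of Fos. Scripts were tested on simulated data.

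The 6 members, the gene lists and the tests were chosen with earlier results of these data known. Beyond the members, the text names from each list up to 6 called genes with the smallest adjusted p and the most abundant gene, and the 8 genes nearest to Glul (at least 1 TPM in the higher group); other names are marked as chosen after their values were seen. Intervals cover counting error only.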

Additional observations from a re-analysis of the deposited data

Results flagged for a closer look

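In 26 groups of 5 libraries, 3 held a library far from the others by Dixon's test (critical value 0.71), which chance gives in about 5% of groups. In control library 4, Slc1a4 stood at 2.60 in log2 CPM, where the next control stood at 1.22. In the same library the log2 ratio of Slc1a4 over Glul was -6.95, and the next control stood at -8.45. In labelled knockout library 5, the log2 ratio of Slc13a3 over Glul was -5.37, and the next labelled knockout library stood at -6.58.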

How the results depend on the processing

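All 6 members pointed lower in labelled knockout libraries in all 20 alternative fits, except that Slc1a4 was not fitted in the 2 with limma. Glul ranged from -3.34 to -3.14 (log2) when single libraries were left out, and Glul and Rhbg were called in all 20. The members called numbered 4 to 5 when single libraries were left out, 5 with DESeq2, 3 without the high Fos libraries, and 2 with the run as a covariate, where Slc1a2 (-4.48) and Slc13a3 (-5.03) were lost. With the run in the fit, the group difference rests on labelled knockout libraries 1 and 3 alone. Slc1a2 was also lost without the high Fos libraries (-4.80). Oat was called by DESeq2 (-1.86) and without labelled knockout library 1 or 4, and was not called in 17 of the 20. It ranged from -2.22 to -1.65 without single libraries.

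The replicate numbers did not pair the libraries: same-numbered deviations correlated at 0.276, 0.0838, -0.0997, -0.0375 and 0.108 for numbers 1 to 5, and only numbers 1 and 2 correlated best with their own number. With the replicate number as a block 3 members were called, and Slc1a2 was not (-5.16, edgeR adjusted p = 0.062). Paired ratios cannot go below an exact permutation p of 0.0625, which Slc1a4 over Glul (2.26), Glul over Gls2 (-3.55) and Glul over Cps1 (-3.24) reached; Oat over Glul (1.19) gave 0.125.

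Genes called over all tested genes, 46, became 119 with no filter, 12 and 22 with limma after adding 1 or 0.1 TPM, 5 with the run, 158 with DESeq2, 30 without high Saa1, 17 without high Fos, and 33 to 83 without single libraries (83 without labelled knockout library 1). Pericentral markers called, 9, became 0 and 2 with limma, 0 with the run, 14 with DESeq2, 5 without high Saa1, 3 without high Fos and 5 to 10 without single libraries. The ornithine list and the relatives each had 1 call with no filter and 1 with DESeq2; the other transporters had 1 with no filter, 2 with DESeq2 and 0 to 2 without single libraries, and the glutamine enzymes 0 to 1.

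Rhbg over Glul turned to 0.95 with 1 TPM added, 0.15 without labelled knockout library 1, 0.024 without control library 1 and 0.076 without control library 4, within a range of -0.33 to 0.15 over single libraries left out. Slc13a3 over Glul turned to 0.69 with 1 TPM added, had an unadjusted p under 0.05 on CPM (-1.95), and ranged from -1.29 to -0.71. Slc1a2 over Glul had an unadjusted p under 0.05 on CPM (-2.10) and ranged from -1.85 to -0.97. Without the high Saa1 libraries no ratio could pass: Oat over Glul 1.6, Slc1a4 over Glul 2.58, Glul over Gls2 -3.53, Glul over Cps1 -3.34. Without high Fos, Oat over Glul was 1.13. Single libraries left out gave 1.01 to 1.5 for Oat over Glul, 2.02 to 2.61 for Slc1a4 over Glul, -3.71 to -3.45 for Glul over Gls2 and -3.36 to -3.07 for Glul over Cps1. Of these, Oat over Glul would keep an adjusted p under 0.05 only without labelled knockout library 4. Beyond fits with fewer libraries, the cause was not tested. Counts in labelled knockout libraries summed to 56 for Slc13a3, 101 for Rhbg, 140 for Slc1a4 and 335 for Slc1a2, which limits the precision of their levels there.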
